A study of Homo sapiens with 4 samples.

Results

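Tight junctions, desmosomes, gap junctions and the related adhesion proteins of epithelial cells were compared between PC-3, a human prostate cancer cell line derived from a bone metastasis, and PC-3-BM, its bone-metastatic derivative. The list held 47 genes, given by symbol and chosen with earlier results of these data known, and 43 of them were measured by a probe set that the platform annotation gives to that gene alone, out of 18417 genes measured in this way. OCLN and CTNND1 were represented on the array by probe sets shared with another gene symbol and were not assigned a value, and F11R and COL17A1 were not analysed here. Where a gene had several probe sets, the brightest by the mean of the 4 arrays was used.

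PC-3 is labelled as poor and PC-3-BM as high in metastatic potential. Per the study's methods, PC-3-BM was a clone recovered from long bones of male nude mice in the third of successive rounds of intracardiac injection, geneticin selection, expansion in culture and sorting for green fluorescent protein, so that it represents 1 selection lineage. Both lines carried a firefly luciferase and green fluorescent protein construct. Each line was measured on 2 single-colour arrays. Separate cultures are not mentioned for them, so that the p-values describe array-to-array spread, possibly of technical origin alone. It is also not settled whether the RNA came from cells grown in mice, which the labels describe, or in dishes, which the methods describe.

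Tight junctions seal the space between neighbouring epithelial cells. Claudins and the MARVEL proteins, which include occludin, form their strands, and the ZO proteins and cingulins tie the strands to actin. Desmosomes are spot-like junctions in which the cadherins called desmocollins and desmogleins bind the neighbouring cell, and plakoglobin, plakophilins and desmoplakin link them to keratin filaments. Gap junctions are channels of connexins that let small molecules pass between cells, and hemidesmosomes fix the keratin network to the basement membrane. Loss of such junctions is widely studied in carcinoma because it accompanies the loosening of epithelial cells, and PC-3 itself is known as a line with poor cell-cell cohesion that lacks alpha-catenin.

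In PC-3-BM, 10 of the 43 genes fell and 3 rose, with "rose" and "fell" used throughout for an adjusted p below 0.05 in limma. Among those that fell were the desmosomal cadherins DSC3, DSC2 and DSG2, the claudins CLDN1 and CLDN3, the plakophilin PKP1 and the surface adhesion molecule EPCAM. Those that rose were the hemidesmosome and cytoskeleton linker DST, the connexin GJA1 and the claudin CLDN12. The fall was more than 2-fold for 5 genes of the 43 and the rise for 1, DST. Of all 18417 genes, 266 fell and 427 rose by more than 2-fold. The 13 genes that changed made 30.2% of the 43 measured, against 29.6% of all genes by their brightest probe set and 23.2% of all probe sets, so change as such was no more frequent in this list. The genes that fell made 23.3%, against 14.8% of all genes, and those that rose 6.98%, against 14.8% of all genes. The counts of genes that fell or rose depended on the setting, as did the calls over all features. With the replicate number as a block 7 genes fell and 4 rose, where 19.4% of all probe sets were called, against 23.2%. Under 4 of 10 alternative settings 6 genes rose, where 27.2% to 40.7% of all tested features were called. Under the same 4 settings 12 genes fell, except with trended robust moderation, where 9 fell. The median difference was −0.09 over the list and −0.04 over all genes on the log2 scale.

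**Figure D1:**
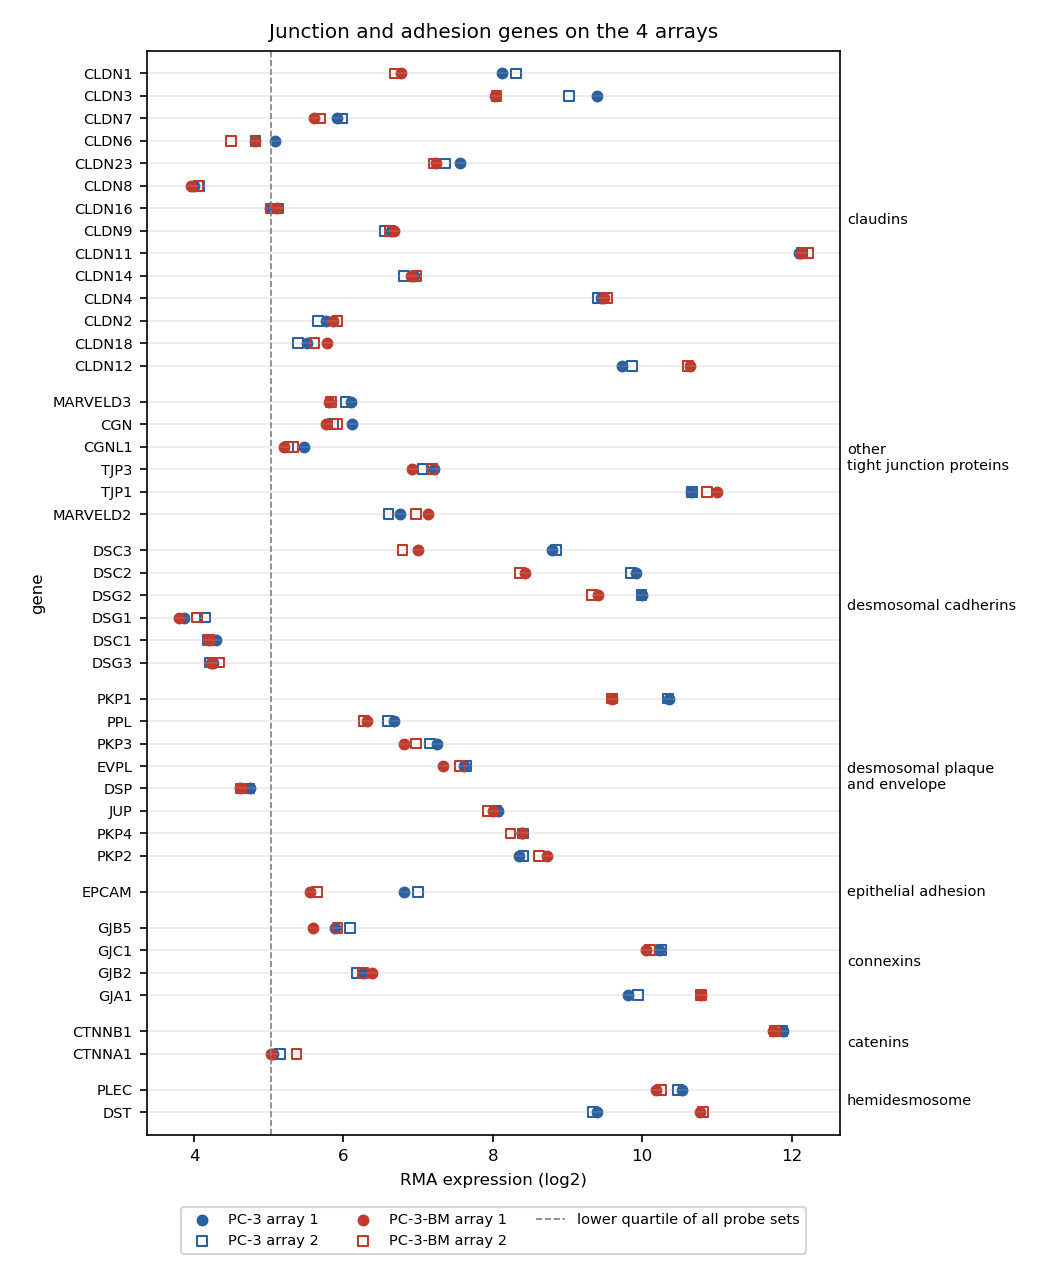
RMA expression (log2, horizontal axis) of the 43 measured junction and adhesion genes (vertical axis, by class) on each of the 4 arrays, with PC-3 in blue, PC-3-BM in red, filled circles for array 1, open squares for array 2 and a dashed line at the lower quartile of all probe sets (5.03). The blue and red marks of DSC3, DSC2, CLDN1, EPCAM and DST stand clearly apart, while CLDN11, at 12.12 and 12.18, lies at the same place in both lines.

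The expression values are on the log2 scale of the robust multichip average (RMA), where 1 unit is a 2-fold change within a gene and values of different genes are not comparable in level. No detection call exists for such values. As a mark of dimness the lower quartile of all probe set means, 5.03, was used, and 6 of the 43 genes lay below it in both lines: CLDN6, CLDN8, DSC1, DSG1, DSG3 and DSP. Of the 24 genes whose mean lay above the median probe set (6.68), 10 changed (41.7%), and of the 19 others 3 changed (15.8%). Over all genes these shares were 41.5% and 11.8%. The study's own thresholds were an adjusted p below 0.001 with a log2 difference above 2 in size. In the limma fit made here 0 of the 43 genes passed them, against 15 (0.0814%) of all genes. The study itself reported more genes at these thresholds than this fit gave. An unadjusted p below 0.05 was found for 19 of the 43 (44.2%), against 43.5% of all genes. The arrays of the lines did not overlap in 29 of the 43 genes (19 lower and 10 higher in PC-3-BM), but the same held for 70.6% of all genes.

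The labelled cell type was checked with 6 fixed epithelial markers. KRT8, KRT18 and KRT19 had means of 9.96, 10.57 and 11.70, EPCAM of 6.25 and KRT5 of 5.43, whereas CDH1, encoding E-cadherin, was at 5.02, below the lower quartile. Of these 6 genes 4 fell (KRT8, KRT18, KRT19 and EPCAM) and none rose. Over all genes 14.8% fell and 14.8% rose, the shares to set beside each marker count of this paragraph. The log2 summed level of these 6 went from 12.87 and 12.95 on the PC-3 arrays to 12.25 and 12.27 on the PC-3-BM arrays. The luminal prostate markers KLK3 and KLK2 did not pass the test, with sums of 6.86 and 6.92 in PC-3 and 6.83 and 6.89 in PC-3-BM. Of 5 measured blood cell markers 1 rose, CD68. PTPRC, CD3E and HBB lay below the lower quartile in both lines. ITGAM lay above it, with means of 5.52 in PC-3 and 5.26 in PC-3-BM, and did not pass the test. The summed level of these 5 was 10.76 and 10.77 in PC-3 and 11.39 and 11.49 in PC-3-BM, and lay close to that of CD68 alone, with means of 10.66 and 11.38. Of 5 stromal markers COL1A1 and LUM rose, DCN and LUM lay below the quartile in both lines, and the sum went from 8.74 and 8.81 to 9.25 and 9.27. Of 4 endothelial markers 1 rose, PECAM1, with sums of 10.93 and 11.06 against 10.81 and 10.91, close to KDR alone with means of 10.87 and 10.71. Such a sum follows its brightest probe set and does not measure a share of cells. The part of other cells in the results below was not tested. In bulk RNA, fewer cells that express a gene and less RNA of it per cell cannot be told apart.

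Among the 6 desmosomal cadherins 3 fell (50%) and 0 rose, against 14.8% of all genes that fell and 14.8% that rose. Those that fell were the 3 genes above the lower quartile, and the other 3 did not pass the test. DSC3, encoding desmocollin 3, was at 8.79 and 8.85 on the PC-3 arrays and at 6.996 and 6.79 on the PC-3-BM arrays. It fell by 1.92 (SE 0.10), a 3.80-fold decrease from 8.82 ± 0.04 to 6.89 ± 0.15 (SD, n = 2, limma, adjusted p = 0.00149), and no other gene of the list fell as far. DSC2, encoding desmocollin 2, the desmocollin common to most epithelia, was at 9.92 and 9.85 in PC-3 and at 8.43 and 8.36 in PC-3-BM. It fell by 1.49 (SE 0.07), or 2.80-fold, from 9.88 ± 0.05 to 8.39 ± 0.04 (SD, n = 2, limma, adjusted p = 0.00149). The arrays of the lines lay more than 1 log2 unit apart for both desmocollins.

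DSG2, encoding desmoglein 2, which is the desmoglein of simple epithelia, had values of 10.00 and 9.99 in PC-3 and 9.42 and 9.32 in PC-3-BM. It fell by 0.63 (SE 0.07) or 1.54-fold, from 10.00 ± 0.01 to 9.37 ± 0.06 (SD, n = 2, limma, adjusted p = 0.00663). Without PC-3 array 1 or PC-3 array 2 its call was lost narrowly (limma, adjusted p = 0.0532 and 0.0544) at differences of −0.62 and −0.63. DSC1, DSG1 and DSG3, known mainly from stratified epithelia, had line means between 3.92 and 4.28 and differences of −0.04, −0.09 and 0.05. These 3 were dim in both lines, which limits what their differences can show.

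The desmosomal cadherin genes lie next to each other on chromosome 18, and the genes that fell were not contiguous within the cluster. In the order of the RefSeq gene table (GRCh38.p14) the measured genes from CDH2 on were CDH2, DSC3, DSC2, DSC1, DSG1, DSG4, DSG3, DSG2, TTR and B4GALT6. DSC3 and DSC2 are side by side, the dim genes DSC1, DSG1, DSG4 and DSG3 follow, and DSG2 closes the cluster. On the side of DSC3 the neighbour CDH2, encoding N-cadherin, rose by 0.34 (SE 0.07, limma, adjusted p = 0.0254). On the side of DSG2, the liver gene TTR differed by −0.05 and B4GALT6, a glycosphingolipid enzyme, fell by 1.02 (SE 0.10, limma, adjusted p = 0.00479).

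**Figure D2:**
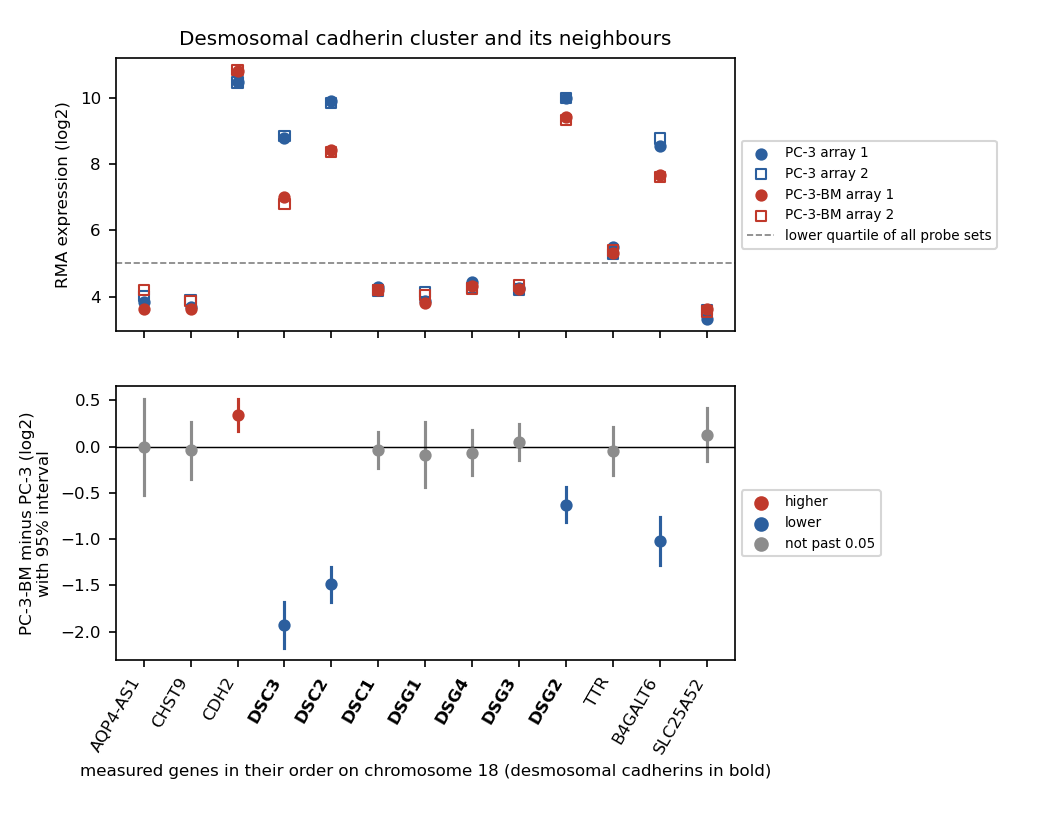
Expression on each array (upper panel, log2) and difference PC-3-BM minus PC-3 with its 95% interval (lower panel, log2) for the measured genes in their order along chromosome 18, desmosomal cadherins in bold, with PC-3 in blue and PC-3-BM in red above and, below, genes that fell in blue, rose in red and did not pass in grey. DSC3, DSC2 and DSG2 differ by −1.92, −1.49 and −0.63, CDH2 beside them rose by 0.34, and the genes between DSC2 and DSG2 lie near 4 on all arrays.

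The sequences before the transcription starts of DSC3, DSC2 and DSG2 are shown because they are the genes of the cluster that fell. They are the 250 bases before the start, from RefSeq (GRCh38.p14), 5′ to 3′ on the strand of the gene, and for DSC2, which has 2 annotated starts, before the more upstream one. Capitals mark an E-box of the letters CACCTG or, on the other strand, CAGGTG, to which repressors of the SNAI and ZEB families are known to bind. The DSC3 stretch is chr18:31042743-31042992 on the minus strand and holds no such letters. The DSC2 stretch is chr18:31102422-31102671 on the minus strand with 1 E-box, 156 bases before the start, and the window of its other start holds none. The DSG2 stretch is chr18:31497927-31498176 on the plus strand with 2 E-boxes, 232 and 116 bases before the start.
DSC3: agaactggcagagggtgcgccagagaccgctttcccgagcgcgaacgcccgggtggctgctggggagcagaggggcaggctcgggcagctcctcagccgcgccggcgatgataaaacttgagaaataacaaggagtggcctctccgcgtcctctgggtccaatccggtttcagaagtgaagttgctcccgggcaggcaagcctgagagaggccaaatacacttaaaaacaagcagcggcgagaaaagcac
DSC2: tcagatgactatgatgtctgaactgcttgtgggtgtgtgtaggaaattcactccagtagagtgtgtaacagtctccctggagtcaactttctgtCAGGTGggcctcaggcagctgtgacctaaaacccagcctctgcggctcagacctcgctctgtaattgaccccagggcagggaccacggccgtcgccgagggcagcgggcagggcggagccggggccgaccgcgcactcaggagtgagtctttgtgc
DSG2: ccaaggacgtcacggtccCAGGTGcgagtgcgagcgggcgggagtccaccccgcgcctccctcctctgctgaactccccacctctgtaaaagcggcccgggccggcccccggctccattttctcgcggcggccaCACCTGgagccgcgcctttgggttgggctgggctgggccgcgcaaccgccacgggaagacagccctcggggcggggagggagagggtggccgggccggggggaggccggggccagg

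Of the 47 genes, 33 had a promoter window in the RefSeq table, running from 250 bases before to 50 bases after each start. The genes without one were CLDN8, CLDN9, CLDN23, MARVELD3, F11R, PKP2, PKP3, PPL, EVPL, EPCAM, GJB5, GJC1, CTNND1 and PLEC. An E-box of these letters was found in at least 1 window of 15 of the 33 genes (45.5%), against 24.1% of 27305 genes in the table. Of the genes that fell, 4 of 7 with a window held one (CLDN3, CLDN7, DSC2 and DSG2), as did 10 of 21 that did not pass the test (47.6%) and 0 of 3 that rose. The letters were thus about as frequent in the genes that did not pass as in those that fell. CLDN7 held 5 in 1 window, 2 of them within the last 30 bases before the start (chr17:7262479-7262508, minus strand), shown here with the E-boxes in capitals because it was the densest window of the list.
CLDN7: tacatatactCAGGTGcgcccCACCTGtcc
A motif of the grainyhead factors, which are known to drive epithelial junction genes (the letters AACC, any base and GTT, both strands), was found in 1 of the 33 genes (CGN), 3.03% against 2.14% of the table. A match of letters is a description and not evidence of binding.

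In the desmosomal plaque, PKP1 and PPL fell (25%) and none of the 8 genes rose, against 14.8% of all genes that fell and 14.8% that rose. PKP1, encoding plakophilin 1, which clusters desmosomal cadherins with desmoplakin, was at 10.36 and 10.34 in PC-3 and at 9.60 and 9.59 in PC-3-BM. It fell by 0.76 (SE 0.07), or 1.69-fold, from 10.35 ± 0.01 to 9.59 ± 0.00 (SD, n = 2, limma, adjusted p = 0.00382). PPL, encoding periplakin, a linker of the cornified envelope and of desmosomes to intermediate filaments, was at 6.68 and 6.60 in PC-3 and 6.32 and 6.27 in PC-3-BM. It fell by 0.34 (SE 0.07, limma, adjusted p = 0.0311), a small step that did not pass when any 1 array was left out (limma, adjusted p from 0.0998 without PC-3 array 2 to 0.141 without PC-3 array 1).

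The other plaque genes did not pass. PKP2 and PKP3, which are further plakophilins, went in opposite directions without overlap of the arrays. PKP2 was at 8.35 and 8.41 in PC-3 and 8.73 and 8.62 in PC-3-BM (difference 0.29, limma, adjusted p = 0.0544). PKP3 was at 7.25 and 7.16 in PC-3 and 6.82 and 6.97 in PC-3-BM (difference −0.31, limma, adjusted p = 0.0652). JUP, encoding plakoglobin, the plaque protein that binds the tails of the desmosomal cadherins, differed by −0.08 (95% interval −0.26 to 0.10). PKP4 also differed by −0.08, with an interval from −0.29 to 0.13, and the envelope protein EVPL by −0.18 (−0.43 to 0.07). DSP, encoding desmoplakin, the link to keratin, was dim at 4.74 and 4.62. Of the 14 desmosome genes in all, 5 fell (35.7%) and 0 rose in limma, against 14.8% of all genes that fell and 14.8% that rose. The median difference of the 14 was −0.15. An unadjusted p below 0.05 was found for 7 of the 14, against 43.5% of all genes, and under 4 alternative settings 1 of them rose, PKP2. Under the same 4 settings 6 of the 14 fell, except with trended robust moderation, where 5 fell. With either PC-3 array left out 3 of the 14 fell.

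Of the 14 claudins 3 fell and 1 rose, and 10 did not pass. The 4 that changed made 28.6%, against 29.6% of all genes, and the median difference of the 14 was 0.02. CLDN1, a barrier-forming claudin, was at 8.13 and 8.31 in PC-3 and at 6.77 and 6.69 in PC-3-BM, and fell 2.80-fold between means of 8.22 ± 0.13 and 6.73 ± 0.06 (SD, n = 2, limma, adjusted p = 0.00201), a log2 difference of −1.49 with an SE of 0.09. CLDN3, which is also barrier-forming, was at 9.39 and 9.02 in PC-3 and at 8.04 and 8.05 in PC-3-BM. It fell by 1.16 (SE 0.13), or 2.24-fold, from 9.21 ± 0.26 to 8.04 ± 0.01 (SD, n = 2, limma, adjusted p = 0.00657). The PC-3 arrays were spread more widely than for CLDN1, yet both lay well above the PC-3-BM arrays.

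CLDN4, which lies beside CLDN3 on chromosome 7, was at 9.45 and 9.41 in PC-3 and 9.49 and 9.53 in PC-3-BM. Its difference was 0.08 with a 95% interval from −0.10 to 0.26, while that of CLDN3 ran from −1.51 to −0.82. The contrast between these neighbours was not tested. CLDN7, a claudin also found along the lateral membrane, was at 5.92 and 5.99 in PC-3 and 5.61 and 5.69 in PC-3-BM. It fell by 0.31 (SE 0.07, limma, adjusted p = 0.0442), and the call was lost without any 1 array (limma, adjusted p from 0.0982 without PC-3-BM array 2 to 0.178 without PC-3 array 2).

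CLDN12, a claudin that lacks the usual C-terminal motif for binding ZO proteins, went the other way. It was at 9.72 and 9.86 in PC-3 and at 10.64 and 10.61 in PC-3-BM, and rose by 0.83 (SE 0.08), or 1.78-fold, from 9.79 ± 0.10 to 10.63 ± 0.02 (SD, n = 2, limma, adjusted p = 0.00462). CLDN11, known from myelin and from the blood-testis barrier, differed by 0.06 (95% interval −0.14 to 0.25) between means of 12.12 and 12.18. The other 8 claudins that did not pass were CLDN2, CLDN6, CLDN8, CLDN9, CLDN14, CLDN16, CLDN18 and CLDN23, with differences from −0.30 for CLDN6 to 0.24 for CLDN18. The largest interval among them, that of CLDN6, ran from −0.69 to 0.09.

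Of the 6 other tight junction genes measured, 0 passed in limma and 3 had an unadjusted p below 0.05, against 43.5% of all genes, namely TJP1, MARVELD2 and MARVELD3. TJP1, encoding the scaffold ZO-1, was at 10.66 and 10.67 in PC-3 and 11.01 and 10.87 in PC-3-BM, with means of 10.66 ± 0.01 and 10.94 ± 0.10 (SD, n = 2, difference 0.28, SE 0.08, limma, adjusted p = 0.0677). MARVELD2, encoding tricellulin, which sits where 3 cells meet, was at 6.75 and 6.60 in PC-3 and at 7.14 and 6.98 in PC-3-BM (difference 0.38, limma, adjusted p = 0.0514). A second probe set of this gene held the same values on all arrays. MARVELD3 differed by −0.24 (limma, adjusted p = 0.0701). The arrays of the lines overlapped for the scaffold TJP3 and for the cingulins CGN and CGNL1, which differed by −0.08, −0.14 and −0.10. Of all 20 tight junction genes measured 3 fell (15%) and 1 rose (5%), against 14.8% of all genes that fell and 14.8% that rose. The median difference of the 20 was −0.01.

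**Figure D3:**
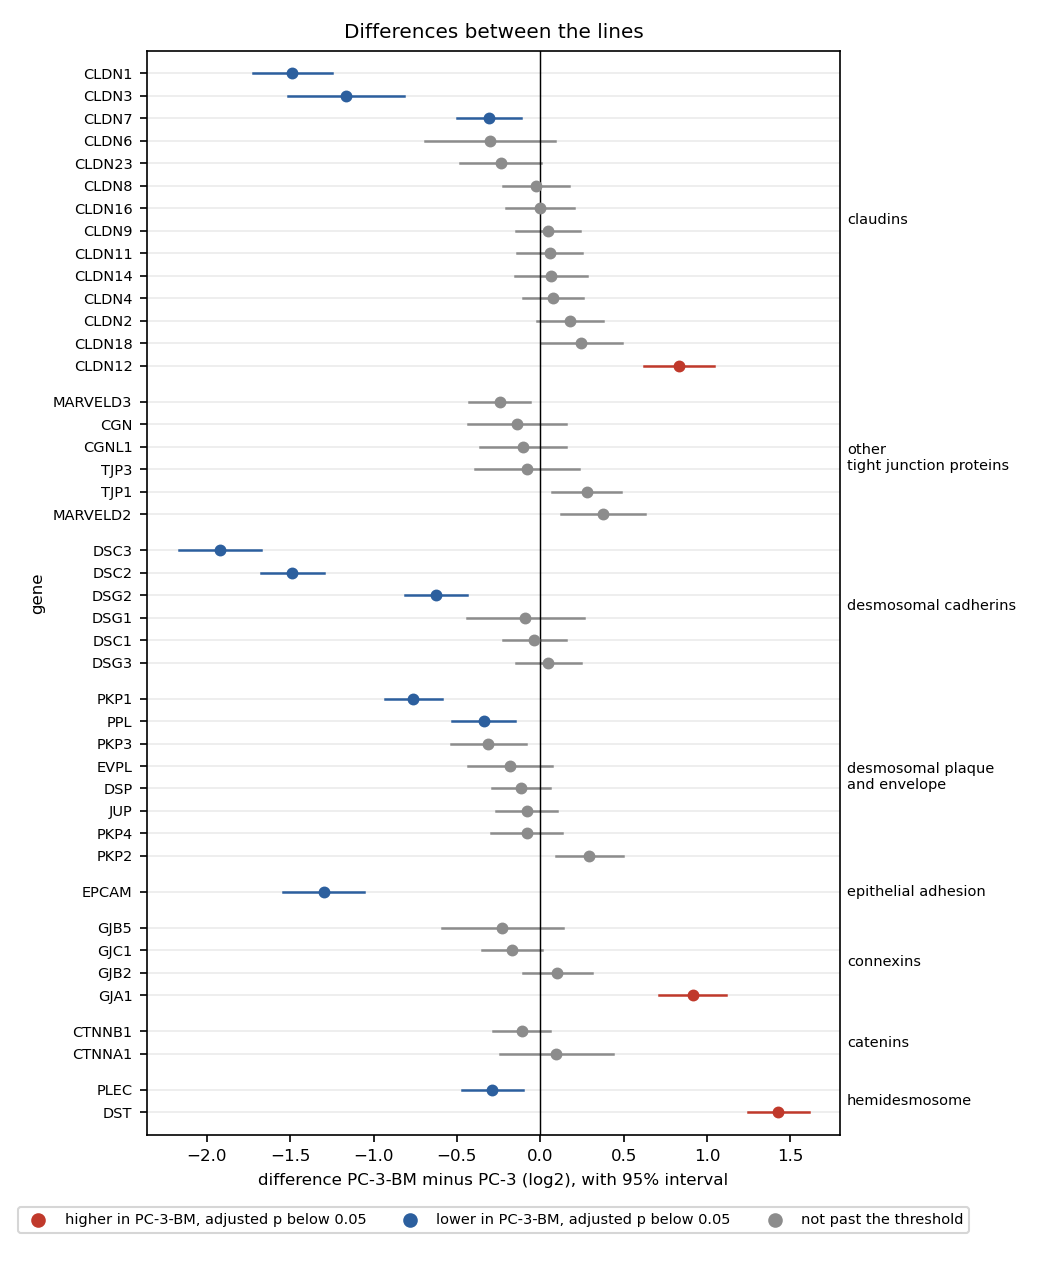
Difference PC-3-BM minus PC-3 (log2, horizontal axis) with its 95% interval for the 43 measured genes (vertical axis, by class), in blue for genes that fell, red for genes that rose and grey for genes not past an adjusted p of 0.05. DSC3 lies lowest at −1.92 and DST highest at 1.43, and all intervals of genes not past the threshold lie between −0.69 and 0.63.

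EPCAM, a homophilic adhesion molecule of epithelial and carcinoma cells that also stabilises claudins, was at 6.81 and 6.99 in PC-3 and at 5.56 and 5.64 in PC-3-BM. It fell by 1.30 (SE 0.09), or 2.46-fold, from 6.90 ± 0.13 to 5.60 ± 0.06 (SD, n = 2, limma, adjusted p = 0.00266). The second EPCAM probe set was dimmer, with 6.02 and 5.92 on the PC-3 arrays and means of 5.97 ± 0.07 in PC-3 and 3.99 ± 0.01 in PC-3-BM (SD, n = 2). It fell by 1.98 (SE 0.07, limma, adjusted p = 0.001). In PC-3-BM this second probe set was below the mark of dimness, which leaves the size of its fall uncertain. Both probe sets showed PC-3-BM below PC-3 on every array. Of the 10 nearest measured genes on chromosome 2, 1 fell and 0 rose in limma.

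Among the connexins 1 of 4 changed (25%), against 29.6% of all genes. GJA1, encoding connexin 43, the most widely expressed connexin, was at 9.82 and 9.94 in PC-3 and at 10.79 on both PC-3-BM arrays. It rose by 0.91 (SE 0.08), or 1.88-fold, from 9.88 ± 0.09 to 10.79 ± 0.00 (SD, n = 2, limma, adjusted p = 0.00357). GJC1, encoding connexin 45, differed by −0.17 (95% interval −0.35 to 0.01) between means of 10.24 and 10.08. GJB2 and GJB5, connexins of epithelia, differed by 0.10 and −0.23, and the arrays of GJB5 overlapped. Of the 4 connexins 0 fell in limma, also at an unadjusted p below 0.05.

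At the hemidesmosome, both measured genes changed, against 29.6% of all genes, and in opposite directions. DST, which encodes dystonin and, as its epithelial form, the hemidesmosome linker BP230, was at 9.40 and 9.34 in PC-3 and at 10.78 and 10.81 in PC-3-BM. It rose by 1.43 (SE 0.07), or 2.69-fold, from 9.37 ± 0.05 to 10.80 ± 0.02 (SD, n = 2, limma, adjusted p = 0.00149). The probe set does not tell the epithelial form from the other products of this large gene. PLEC, encoding plectin, which ties keratin to the hemidesmosome integrin, was at 10.53 and 10.48 in PC-3 and 10.19 and 10.25 in PC-3-BM. It fell by 0.29 (SE 0.07, limma, adjusted p = 0.0458), and this call was lost without any 1 array (limma, adjusted p from 0.108 without PC-3-BM array 2 to 0.18 without PC-3 array 1).

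Of the catenins, which join classical cadherins to the cytoskeleton, 0 of the 2 measured genes passed in limma, also at an unadjusted p below 0.05. CTNNB1, encoding beta-catenin, was at 11.88 on both PC-3 arrays and at 11.75 and 11.78 in PC-3-BM, with means of 11.88 ± 0.00 and 11.77 ± 0.02 (SD, n = 2, difference −0.11, SE 0.07, limma, adjusted p = 0.299). CTNNA1, encoding alpha-catenin, was at 5.06 and 5.15 in PC-3 and at 5.03 and 5.37 in PC-3-BM, close in both lines to the quartile used as the mark of dimness, and the arrays of the lines overlapped.

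Other junction genes, 81 in all of which 68 were measured, were taken from fixed lists outside the 47. These lists too were chosen with earlier results of these data known. Of these 68 genes 13 fell (19.1%) and 10 rose (14.7%), against 14.8% of all genes that fell and 14.8% that rose. Of 26 other tight junction and polarity genes 5 fell and 2 rose, led by CXADR, an adhesion receptor of tight junctions, which fell by 0.95 (SE 0.13), CLDN22, which fell by 0.79 (SE 0.11), and AMOTL1, an angiomotin, which fell by 0.63 (SE 0.12, limma, adjusted p from 0.0101 to 0.0222). CLDN22 has a near-identical copy, so its value is uncertain. Of 4 other desmosome genes PERP, a membrane protein of desmosomes, rose by 0.48 (SE 0.07) and CDSN, corneodesmosin, fell by 0.45 (SE 0.10). Of 14 other connexins and pannexins PANX3 rose by 0.97 (SE 0.11), PANX1 rose by 0.36 (SE 0.08) and the neuronal connexin GJD2 fell by 0.32 (SE 0.08).

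Adherens junction genes moved in both directions. Of 14 genes 3 rose (21.4%) and 2 fell (14.3%), against 14.8% of all genes that rose and 14.8% that fell. Among them AFDN, the nectin-binding scaffold afadin, rose by 0.74 (SE 0.09) and NECTIN2 by 0.51 (SE 0.07), while NECTIN1 fell by 0.50 (SE 0.07). The partners of DST and PLEC split likewise, since the hemidesmosome integrin subunit ITGB4 fell by 1.99 (SE 0.10), while its partner ITGA6 rose by 0.69 (SE 0.07) and the tetraspanin CD151 by 0.49 (SE 0.07). LAMB3, a chain of the laminin to which this integrin binds, differed by −0.13. Among 6 epithelial surface genes 3 fell (50%) and 0 rose, against 14.8% of all genes that fell and 14.8% that rose. An unadjusted p below 0.05 in limma was found for the same 3, against 43.5% of all genes. SPINT1, an inhibitor of matriptase, fell by 1.37 (SE 0.08), the epithelial splicing regulator ESRP2 fell by 0.50 (SE 0.07) and the membrane protease PRSS8 fell by 0.29 (SE 0.07). The counts of these 68 genes dropped with any 1 array left out, as did the calls over all probe sets (from 23.2% to between 6.72% and 11.6%). Without PC-3 array 1 or PC-3 array 2, 3 fell and 1 rose, without PC-3-BM array 1, 3 fell and 4 rose, and without PC-3-BM array 2, 6 fell and 5 rose.

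**Figure D4:**
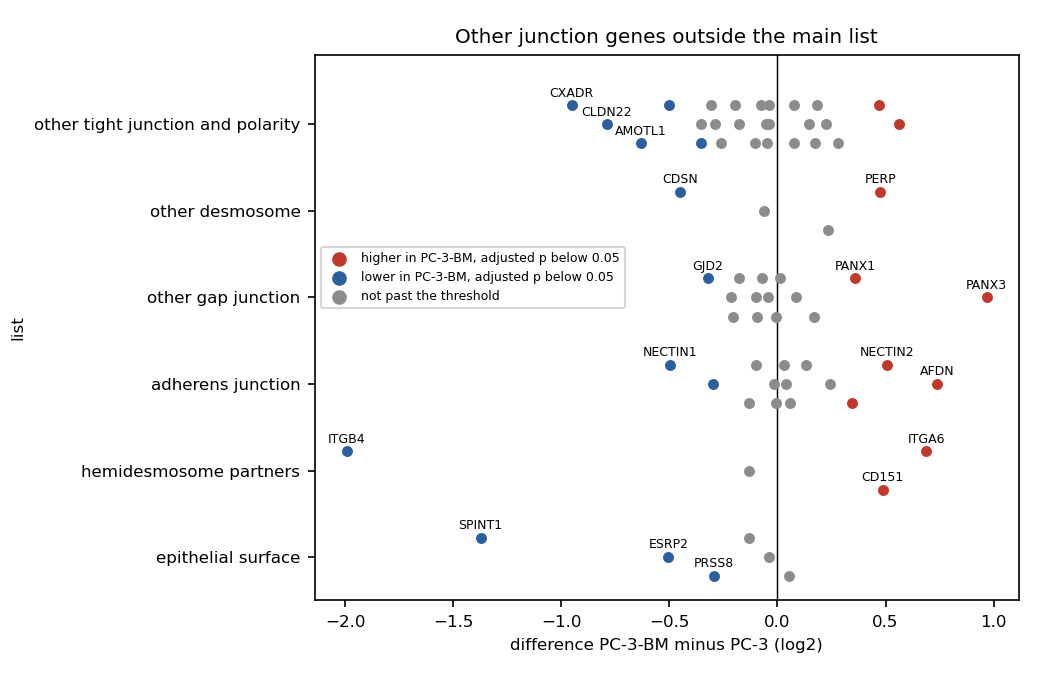
Difference PC-3-BM minus PC-3 (log2, horizontal axis) of the 68 measured junction genes outside the main list (vertical axis, 6 lists), each dot a gene, in blue for genes that fell, red for genes that rose and grey for genes not past an adjusted p of 0.05, with up to 3 names per list. ITGB4 at −1.99 and SPINT1 at −1.37 lie farthest to the left, and PANX3 at 0.97 and AFDN at 0.74 farthest to the right.

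The neighbours of the changed genes along the chromosomes were mixed. For each gene the 5 measured genes on either side were counted, and over all genes the median was 1 neighbour that rose and 1 that fell. Around CLDN1 2 of 10 neighbours rose and 1 fell, around CLDN3 1 rose and 1 fell, around PKP1 1 rose and 2 fell, and around CLDN12 3 rose and 2 fell. Around DST 3 rose and 1 fell, around GJA1 4 rose and 1 fell, and around PLEC 3 fell and none rose. Around DSG2 4 fell and none rose, and those that fell include DSC2, itself a gene of the list. The median difference of the neighbours lay above the upper quartile of this median over all genes (0.05) for CLDN1 (0.06) and GJA1 (0.24), and below the lower quartile (−0.12) for CLDN3 (−0.12), PPL (−0.13) and PLEC (−0.25). For the other 8 genes that changed it lay between the quartiles.

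Taking the genes that fell together, 7 of the 10 kept an adjusted p below 0.05 without PC-3-BM array 1 and without PC-3-BM array 2, and 6 did without PC-3 array 1 and without PC-3 array 2. The 3 genes that rose, DST, GJA1 and CLDN12, passed with any 1 array left out.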

How the data were processed

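Total RNA of the 4 samples was labelled with biotin and hybridised to Affymetrix Human Gene ST arrays. The deposited values are log2 expression, which the authors made with RMA (background correction, equal distributions between arrays, summary to probe sets). Their processing notes (the submitters') list limma 3.24 and R 3.2. The table held 33297 probe sets without missing values, from 2.30 to 14.42, with array medians from 6.66 to 6.72. Pearson's r across probe sets was 0.997 and 0.996 within the lines and 0.983 to 0.985 between them.

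Probe sets were named from the platform annotation (19460 with 1 symbol, 1754 with several, 12083 with none). PC-3-BM minus PC-3 was fitted with limma 3.58.1 in R 4.3.3 over all probe sets, with empirical Bayes moderation (2.88 prior beside 2 residual degrees of freedom) and Benjamini-Hochberg adjustment, and calls were made at 0.05. The fit was tested on simulated data with independent arrays, which cannot show whether the real arrays were separate cultures. An exact two-sided permutation test of 2 against 2 arrays cannot go below 0.333, so the calls rest on moderated variances, and the number of arrays limits the precision. RMA would hide a shift of all transcripts. The genes, their classes and the lists were chosen with earlier results of these data known. Genes given full statistics were up to 3 per direction and class with the largest difference past 0.05, or the brightest where none passed. Alternatives were median centring, 2 filters on probe sets, the mean of a gene's probe sets, trended robust moderation, a replicate block and each array left out. Sequences and gene order came from RefSeq tables of GRCh38.p14. No genome build is given in the sources used here, and the array's coordinates were not used.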

Additional observations from a re-analysis of the deposited data

How the results depend on the processing

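Of the 13 genes that changed, 9 kept their direction and an adjusted p below 0.05 in limma under all 10 alternatives, and 4 lost the call in at least 1 (CLDN7, PPL, PLEC and DSG2). No called difference changed sign. The count of genes that rose, 3 in the report, became 6 among probe sets with a mean above 5, among probe sets with 1 gene symbol, with trended robust moderation and with the mean of a gene's probe sets, through TJP1, MARVELD2 and PKP2, so that tight junction genes that rose went from 1 to 3 and desmosome genes from 0 to 1. In the same order of settings the share of all tested features that was called rose from 23.2% to 34.4%, 39.8%, 27.2% and 40.7%. The genes that fell, 10 in the report, became 12 under these settings, except with trended robust moderation, where 9 fell. MARVELD3 and PKP3 were gained, so that tight junction genes that fell went from 3 to 4 and desmosome genes from 5 to 6. The cause was not tested. With arrays centred on their medians 2 tight junction genes rose, and CLDN7 and PLEC lost their calls (limma, adjusted p = 0.0705 and 0.0685).

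With an array left out, 6 to 7 genes of the list fell and 3 to 3 rose, 3 to 4 desmosome genes fell, and of the fixed lists outside it 3 to 6 fell and 1 to 5 rose, while the share of all probe sets called went from 23.2% to between 6.72% and 11.6%. The replicate numbers did not pair the arrays (Pearson's r of same-numbered deviations −0.02). With the replicate number as a block 7 genes of the list fell and 4 rose, 2 of the latter in tight junctions, and CLDN7, PPL and PLEC were lost (limma, adjusted p = 0.0673, 0.0535 and 0.0864). Genes near the lower quartile carry little signal over background, and their differences are limited by it.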
